A study of Mus musculus with 16 samples.

Results

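Cytosolic ribosomal proteins are the protein part of the ribosome. Those of the large subunit (Rpl genes) surround the site where peptide bonds form, and those of the small subunit (Rps genes) surround the site where the mRNA is decoded. Cells make both sets in matched amounts, and many of their mRNAs begin with a C and a run of pyrimidines, the TOP motif, through which the kinase mTOR and the RNA-binding protein Larp1 control translation. The genes were chosen by name, as those whose symbol on a probe with 1 gene symbol has the form Rpl, Rps, Rplp or Rpsp followed by a number. This took 48 of the 18194 genes with such a probe, 26 of the large and 22 of the small subunit. The name also takes the paralogs Rpl3l, Rpl22l1, Rpl39l, Rpl7l1, Rps27l and Rps4l. Ribosomal protein genes have many pseudogenes of like sequence, and a further 28 symbols of this form stand only on probes with several symbols and are not reported here.

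The mice were DBA/2J males, a strain that loses its hearing early, and each array held the whole left cochlea of 1 mouse. The first group was 5 mice taken at 4 weeks of age without injections (4 weeks). The second was 5 mice of 12 weeks given vehicle over 8 weeks (control), and the third was 6 mice of 12 weeks given L-methionine (MET, 500 mg/kg) plus valproic acid (VPA, 300 mg/kg) over the same 8 weeks (M+V). MET is a precursor of the methyl donor of DNA methylation, and VPA inhibits histone deacetylases. The comparison of M+V with control asked what the treatment did at one age, and the comparisons with 4 weeks hold age as well. Whole cochleae contain bone, marrow, nerve and sensory cells, so fewer cells of a type and less RNA per cell cannot be told apart. Of the 15 cochlear marker genes with a probe, 12 passed the filter on low signals.

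Libraries stood apart in 2 ways that touch the results below. The bacterial bioB spike-in lay between 9.02 and 9.74 on the log2 signal scale on 8 arrays, namely all 5 of 4 weeks, control 1, M+V 1 and M+V 2, and between 5.98 and 6.36 on the other 8. This is called the spike-in level below, and it was high on all 4-week arrays, on 1 of 5 control arrays and on 2 of 6 M+V arrays. M+V 1 also had a low signal of red-cell genes, with a mean over 7 erythroid markers of -5.49 relative to the 16-array mean (log2), against -0.33 to 0.91 on the other 15 arrays. The mean over 7 tested oligodendrocyte markers of 9 in the list was lowest on M+V 1 (-1.21) and M+V 2 (-0.75) and lay between -0.63 and 0.57 elsewhere. In M+V against 4 weeks, 5 of 6 tested bone genes were lower and 5 of 11 genes of neutrophil precursors were higher, each past the adjusted threshold of 0.05. In control against 4 weeks these counts were 4 of 6 and 2 of 11. The part of these cells in the results below was not tested.

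Starts of 8 of these genes are shown as examples of annotated starts with and without the run of pyrimidines of the TOP motif. The sequences are from RefSeq on GRCm38.p6, each 30 bases on the transcribed strand, with 15 before the annotated start and 15 from it on. Capitals mark the run of C and T, from the C nearest to the start, that met the search rule. The rule was a C followed by at least 4 bases that are C or T, beginning within 10 bases of the start, on the transcribed strand only.
Rplp0 (chr5:115559452-115559481, plus strand): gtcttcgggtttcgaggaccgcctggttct
Rplp2 (chr7:141447636-141447665, plus strand): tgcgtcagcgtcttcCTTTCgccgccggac
Rps6 (chr4:86857353-86857382, minus strand): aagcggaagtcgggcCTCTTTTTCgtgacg
Rps19 (chr7:24884898-24884927, plus strand): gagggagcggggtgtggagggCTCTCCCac
Rpl11 (chr4:136053379-136053408, minus strand): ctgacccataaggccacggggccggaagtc
Rpl37 (chr15:5116598-5116627, plus strand): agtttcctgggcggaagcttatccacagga
Rpl22l1 (chr3:28805493-28805522, plus strand): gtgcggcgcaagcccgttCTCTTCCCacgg
Rpl7l1 (chr17:46782642-46782671, minus strand): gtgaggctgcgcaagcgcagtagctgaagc

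The run lay exactly at the annotated start of Rplp2 and Rps6, a few bases after it in Rps19 and Rpl22l1, and was not in this window of Rplp0, Rpl11, Rpl37 and Rpl7l1. Rps19 has 3 annotated starts, and the printed one is the only one that held the run. Of the 42 members with a promoter listed, 27 (64.3%) held the run at 1 or more starts, 16 of 24 in the large and 11 of 18 in the small subunit, beside 34.4% of all 27025 genes listed. A start that was itself the C of such a run was listed for 8 of the 42 (19.0%), beside 3.01% of all genes. Rpl7, Rpl8, Rps14, Rps20, Rps29 and Rps4l were not listed. The annotated starts were not measured in these cochleae, so a gene without the run here may still have a TOP mRNA.

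The ribosomal protein genes gave bright and steady signals. All values are log2 MAS5 signals that the authors quantile-normalized, and each gene is given by its brightest probe. The filter on low signals, explained with the processing, kept 45 of the 48 members, 24 large and 21 small. The 3 others were Rpl39l, Rpl3l, the muscle-enriched paralog of Rpl3, and Rps16, a core small-subunit protein, with means of 6.35, 3.32 and 2.23. For Rps16 this is the signal of 1 single-symbol probe and no measure of how much Rps16 mRNA the cochlea holds. The mean signal of 35 members was between 13.01 and 15.19, and that of the other 10 tested members was between 8.23 and 10.72. Within groups, the 45 members had a median SD of 0.072, beside 0.22 for all 21391 tested probes and 0.12 for the 673 tested probes with a mean of at least 13. The 10 dimmer members had a median SD of 0.23. Rpl37, Rpl27a, Rpl39, Rps6 and Rps27 are among these dimmer members.

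Signals this high are close to ranks. Quantile normalization gave every array the same set of values, so a value is fixed by a probe's rank on its array. Probes of the members made up 14 to 21 of the 100 highest on each array and 32 to 44 of the 200 highest. Rps29, a small-subunit protein, held ranks 3 to 7. The probe at rank 3 has the value 15.22 on every array, and the next rank down is 0.10 lower. Rps29 therefore read 15.22 on 5 of 6 M+V arrays and 15.06 on M+V 3. Differences of Rps29 are steps of a few ranks. Rpl38 held ranks 5 to 21 and Rps28 ranks 9 to 37. At rank 100 the next rank down is 0.0046 lower, so small differences there span more ranks.

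On the normalized, rank-like scale, the mean over the tested members differed little between groups. This mean does not bound the change in mRNA, and it leaves out the 28 symbols that stand only on probes with several symbols. Each array's mean over the large-subunit members, taken as a deviation from the 16-array mean on the log2 scale, was -0.044 ± 0.032 (SD, n = 5) at 4 weeks, -0.0082 ± 0.053 (SD, n = 5) in control and 0.044 ± 0.086 (SD, n = 6) with M+V. For the small subunit these means were -0.016 ± 0.051 (SD, n = 5), -0.021 ± 0.063 (SD, n = 5) and 0.031 ± 0.056 (SD, n = 6). The groups overlapped for both subunits. The highest large-subunit means were those of M+V 1 (0.16), M+V 2 (0.14) and control 1 (0.082), the 3 arrays of 12 weeks with a high spike-in level, whereas M+V 3 lay at -0.070. The 5 arrays of 4 weeks, also of that level, lay between -0.086 and -0.016. Over the 18 large-subunit members with a mean signal of at least 13, M+V 1 and M+V 2 lay at 0.047 and 0.030, within the range of the other M+V arrays apart from M+V 3 (0.024 to 0.049).

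**Figure D1:**
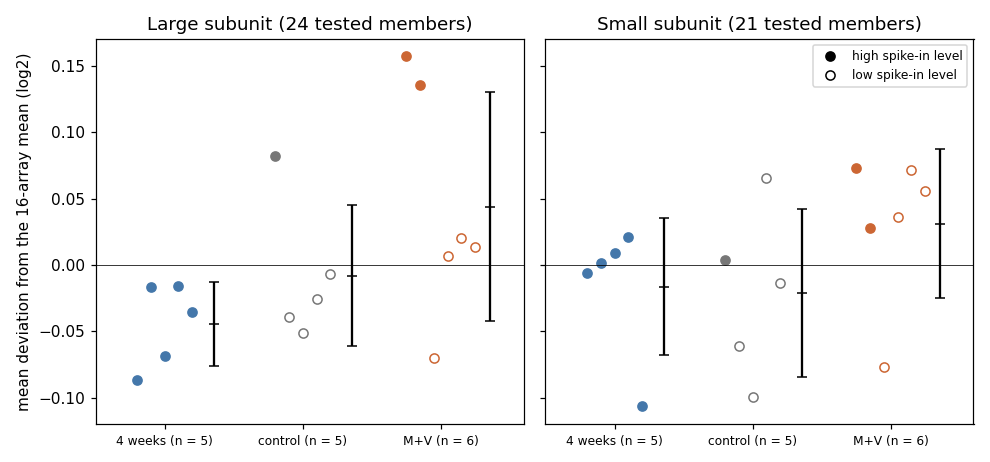
Mean over the tested large-subunit (left) and small-subunit (right) members on each array, as a deviation from the 16-array mean in log2 units, with points for arrays (filled for a high and open for a low spike-in level) and bars for the group mean and SD. M+V 1 and M+V 2 are highest in the left panel at 0.16 and 0.14, and the groups overlap in both panels.

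The medians of the large and the small subunit lay close together in each comparison. The median log2 fold change of M+V over control was 0.021 for the 24 large and 0.024 for the 21 small members, beside 0.0087 for all tested probes. For control over 4 weeks the medians were 0.059 and -0.0084 (all probes -0.00081), and for M+V over 4 weeks they were 0.096 and 0.036 (all probes 0.0044). In these 3 comparisons 29, 27 and 34 of the 45 members lay above 0. The last 2 comparisons share the 4-week arrays, and M+V stands in both the first and the last, so these are not separate counts of one direction. Within an array, the large minus the small mean had a group mean of -0.028 ± 0.062 (SD, n = 5) at 4 weeks, 0.013 ± 0.064 (SD, n = 5) in control and 0.013 ± 0.068 (SD, n = 6) with M+V, differences smaller than the spread between arrays. Over the 35 members with a mean signal of at least 13 it was -0.016 ± 0.012 (SD, n = 5), 0.013 ± 0.018 (SD, n = 5) and 0.0025 ± 0.024 (SD, n = 6), and there the difference between control and 4 weeks exceeded both SDs. It was not tested, and all arrays of 4 weeks but only control 1 among the control arrays had a high spike-in level. Control 1 read 0.026, and the other control arrays -0.017 to 0.030. With M+V, the arrays of high level read -0.025 and -0.023, and those of low level -0.0019 to 0.037.

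No ribosomal protein gene passed an adjusted p of 0.05 in limma in any comparison. The share of all tested probes that did, in either direction, was 0% for M+V against control, 1.38% for control against 4 weeks and 5.28% for M+V against 4 weeks. The lowest adjusted p of a member was 0.45 (Rpl37), 0.24 (Rps18) and 0.067 (Rps19) in the 3 comparisons. At an unadjusted p under 0.05, 3 members (Rpl37, Rps15 and Rps19) were higher and 0 lower with M+V than in control, 1 and 0 in control than at 4 weeks, and 6 and 0 with M+V than at 4 weeks. Of all tested probes, 9.8%, 13.8% and 22.2% had such a p in either direction, larger shares than those of the members in each comparison. In each comparison the 95% interval of 41 of the 45 members lay within a 1.5-fold change either way, and that of 29, 26 and 24 members lay within 0.25 on the log2 scale. For the 35 bright members these intervals are on the rank-like scale described above and do not bound the change in mRNA. The intervals of Rpl37, Rpl27a, Rpl39 and Rps27 reached beyond a 1.5-fold change in the first 2 comparisons, and those of Rpl37, Rpl27a, Rps27 and Rps6 in the last.

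**Figure D2:**
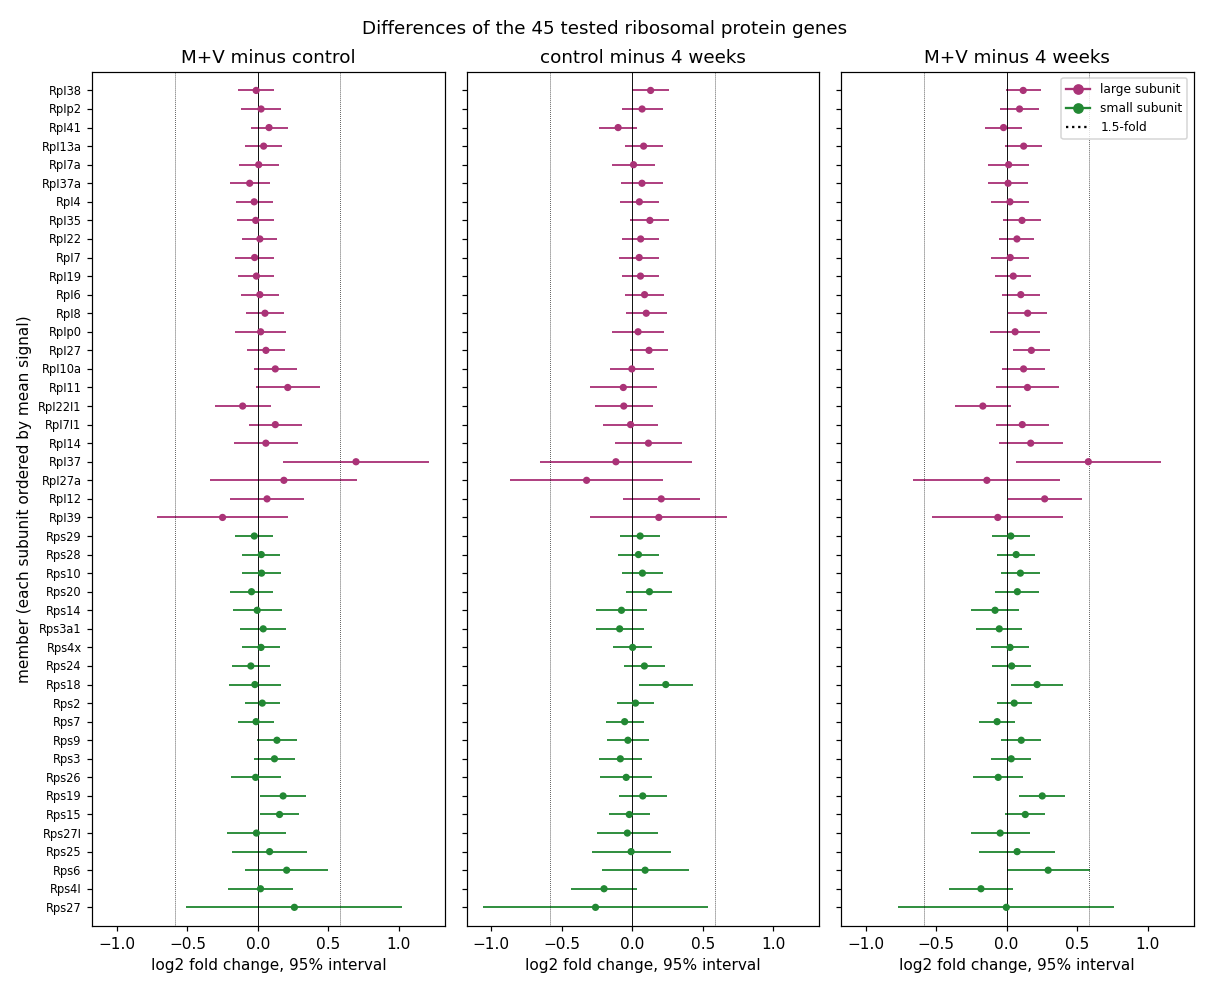
Log2 fold changes (points) with 95% intervals from limma (lines) of the 45 tested members in the 3 comparisons, large subunit above and small subunit below, with dotted lines at a 1.5-fold change. The 35 brightest members lie close to 0 with narrow intervals, and Rpl37 has the highest value in the left and right panels (0.70 and 0.58).

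Rpl37, a zinc-binding protein of the large subunit, had the largest difference between M+V and control among the 45 tested members. Its log2 signal was 9.18, 9.04, 8.77, 9.47 and 9.56 on the arrays of 4 weeks and 9.79, 8.88, 9.03, 8.81 and 8.93 in control. With M+V it ranged from 9.32 to 10.81, with a median of 9.62. The highest M+V array was M+V 1, and control 1 lay within the M+V range, so the groups overlapped. The log2 fold change of M+V over control was 0.70 (SE 0.24, adjusted p = 0.45), and that of M+V over 4 weeks was 0.58 (SE 0.24, adjusted p = 0.17). Rpl37 alone among the members passed the cutoffs of the study's methods, a 1.5-fold change with an unadjusted p under 0.05, for M+V against control; over all tested probes 0.196% passed them upward and 1.34% downward, and 0 members passed downward.

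The size for Rpl37 varied with the arrays used. Among the 4 control and 4 M+V arrays of low spike-in level it was 0.57, all 4 M+V arrays (9.32 to 9.62) lying above all 4 control arrays (8.81 to 9.03). Without M+V 1 it was 0.49. With the erythroid marker mean as a covariate it was 0.40 (adjusted p = 0.61), a list of 12 genes of which 8 had a probe and 7 were tested, whose mean ranged from -0.079 to 0.63 at 4 weeks, 0.21 to 0.91 in control and -5.49 to 0.52 with M+V. None of the 7 was at 0 on M+V 1. With the spike-in level as a block, Rpl37 was higher with M+V than at 4 weeks by 1.17 (adjusted p = 0.0034), and only M+V 1, M+V 2 and the 5 arrays of 4 weeks share the high level for that comparison. The part of the spike-in level in the result was not tested beyond these values, and Rpl37 has 1 single-symbol probe, which ends in x_at and so may also bind related transcripts.

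Rps19, the small-subunit protein most often mutated in Diamond-Blackfan anaemia, came closest to a call. Its log2 signal was 13.76, 13.86, 13.82, 13.77 and 13.68 at 4 weeks and 13.97, 13.75, 13.77, 13.86 and 13.92 in control. With M+V it ranged from 13.86 to 14.24, with a median of 14.02. Only M+V 3 reached down into the range of 4 weeks, and 2 of the 5 control arrays were below every M+V array. The log2 fold change of M+V over 4 weeks was 0.25 (SE 0.078, adjusted p = 0.067), and that of M+V over control was 0.18 (SE 0.078, adjusted p = 0.48). Within the low spike-in level M+V exceeded control by 0.17, and within the high level M+V exceeded 4 weeks by 0.32. Without M+V 3 the difference from 4 weeks was 0.29 with an adjusted p of 0.031, and over all alternatives it ran from 0.19 to 0.33 with adjusted p values from 0.025 to 0.26.

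Rpl27a and Rpl39, both of the large subunit, were high on the 12-week arrays of high spike-in level. Rpl27a read 9.32, 9.07, 9.34, 9.10 and 9.28 at 4 weeks and 9.54, 8.80, 8.90, 8.47 and 8.78 in control, and with M+V from 8.36 to 9.97 with a median of 8.85. All 8 arrays of high level lay above all 8 of low level. Rpl39 read 7.95, 8.43, 8.28, 7.89 and 8.42 at 4 weeks and 9.13, 8.16, 8.24, 8.41 and 7.96 in control, and with M+V from 7.71 to 8.77 with a median of 8.01. Its 3 highest arrays were control 1, M+V 2 and M+V 1, the 12-week arrays of high level, whereas the 4-week arrays (7.89 to 8.43) lay among those of low level (7.71 to 8.41). With the level as a block, Rpl27a was higher with M+V than at 4 weeks by 0.54 (adjusted p = 0.036) and Rpl39 higher in control than at 4 weeks by 0.86 (adjusted p = 0.027), against -0.14 (adjusted p = 0.79) and 0.19 (adjusted p = 0.78) without it. The latter value rests on control 1 as the only control array of the high level.

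**Figure D3:**
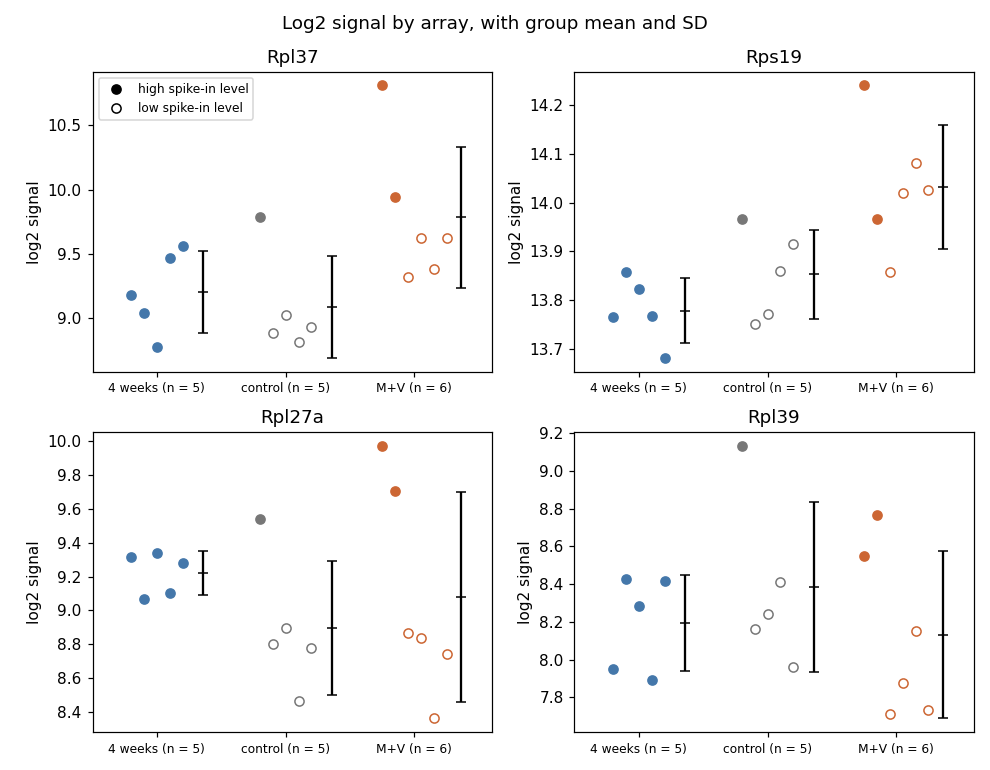
Log2 signal of Rpl37, Rps19, Rpl27a and Rpl39 on each array by group, with filled points for a high and open points for a low spike-in level and bars for the group mean and SD. For Rpl27a the filled points lie above all open points, whereas for Rps19 open M+V points at 13.86 to 14.08 lie beside filled ones at 13.97 and 14.24.

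Groups did not overlap for a few of the steadiest members, with small differences. Rpl38, a large-subunit protein known for its part in the translation of Hox mRNAs, read 14.89, 14.97, 14.88, 14.93 and 14.91 at 4 weeks and 15.09, 15.04, 14.98, 15.06 and 15.06 in control. With M+V its median was 15.03 and its highest value 15.09. Both 12-week groups were above 4 weeks on every array, by 0.13 (SE 0.062, adjusted p = 0.37) in control and 0.12 (SE 0.059, adjusted p = 0.26) with M+V, the latter with an adjusted p of 0.0496 in the methods' t-test. Rpl41, the smallest ribosomal protein, read 14.71, 14.69, 14.68, 14.64 and 14.65 at 4 weeks and 14.63, 14.52, 14.57, 14.53 and 14.62 in control, a difference of -0.10 (SE 0.065, adjusted p = 0.53). For control against 4 weeks, Rpl38 higher and Rpl41 lower were the members without overlap (1 and 1 of 45), beside 1.96% of all probes higher and 3.65% lower. For M+V against 4 weeks they were Rpl13a, Rpl27 and Rpl38, all higher (3 and 0 of 45), beside 1.99% and 2.76%. For M+V against control there were 0 in either direction, beside 0.524% and 0.575%.

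Rpl13a, which also takes part in the translational silencing of inflammatory mRNAs, was at 14.44 to 14.56 at 4 weeks and at 14.57 to 14.67 with M+V, a difference of 0.12 (SE 0.061, adjusted p = 0.26). Its 3 other probes differed by -0.060, 0.097 and 0.17. Rpl27 was at 13.77 to 13.93 at 4 weeks and at 13.98 to 14.10 with M+V, a difference of 0.18 (SE 0.062, adjusted p = 0.11). Its 2 other probes differed by -0.0041 and -0.0087, so for both genes the probes did not all show the difference, although with array weights Rpl27 differed by 0.19 (adjusted p = 0.044). Rps18, a small-subunit protein near the contact with the large subunit, had the lowest adjusted p between control and 4 weeks, with a difference of 0.24 (SE 0.091, adjusted p = 0.24). Its next 2 probes differed by 0.026 and -0.074. Within the high spike-in level the difference of its brightest probe was -0.058, from control 1 alone (14.33) and 4-week arrays at 14.29 to 14.53. The 4 control arrays of low level read 14.63 to 14.77. With array weights Rps18 was higher with M+V than at 4 weeks by 0.26 (adjusted p = 0.035), against 0.22 (adjusted p = 0.16) without them.

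The P-stalk of the large subunit recruits the elongation factors, and its groups overlapped. Rplp0 ranged from 13.85 to 14.05 at 4 weeks, from 13.82 to 14.07 in control and from 13.71 to 14.11 with M+V. Rplp2 read 14.61, 14.66, 14.60, 14.59 and 14.56 at 4 weeks, 14.60, 14.59, 14.71, 14.70 and 14.76 in control and 14.63 to 14.80 with M+V. M+V exceeded control by 0.019 (SE 0.085) in Rplp0 and 0.022 (SE 0.066) in Rplp2. Rpl11, which as part of a particle with an rRNA binds Mdm2 when ribosome assembly is disturbed, read 13.53, 13.50, 13.45, 13.58 and 13.40 at 4 weeks, 13.63, 13.31, 13.36, 13.34 and 13.49 in control and 13.38 to 14.06 with M+V. M+V exceeded control by 0.21 (SE 0.11, adjusted p = 0.54), and its highest arrays were M+V 1 and M+V 2. With the spike-in level as a block, Rpl11 exceeded 4 weeks by 0.37 (adjusted p = 0.032), against 0.15 (adjusted p = 0.44) without it. Rps6, the substrate of the S6 kinases downstream of mTOR, read 8.93, 8.59, 8.85, 8.90 and 8.74 at 4 weeks, 8.88, 8.93, 8.49, 9.23 and 8.94 in control and 8.70 to 9.47 with M+V. M+V exceeded control by 0.20 (SE 0.14, adjusted p = 0.65) and 4 weeks by 0.29 (SE 0.14, adjusted p = 0.23), the latter by 0.39 with array weights (adjusted p = 0.049).

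The paralogs showed no call either. Rpl22l1, a paralog of Rpl22, read 13.59 ± 0.046 (SD, n = 5) at 4 weeks, 13.53 ± 0.24 (SD, n = 5) in control and 13.42 ± 0.062 (SD, n = 6) with M+V. The log2 fold change of M+V over 4 weeks was -0.17 (SE 0.094, adjusted p = 0.30). Rpl22 itself differed by 0.073 (SE 0.059) on its brightest probe, the lowest value of its 3 tested probes, the highest being 0.52. Rps4l had log2 fold changes over 4 weeks of -0.20 (SE 0.11, adjusted p = 0.45) in control and -0.18 (SE 0.11, adjusted p = 0.33) with M+V, while Rps4x on the X chromosome differed by 0.0023 and 0.024. Rps27l, a p53 target, differed from 4 weeks by -0.035 in control and -0.046 with M+V, and Rps27 by -0.26 and -0.0023 with SEs of 0.38 and 0.36. Rpl39l, mainly known from the testis, had group means of 5.97 to 6.56, under the array median of 6.90.

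Probes of one gene often disagreed. Of the 20 members with 2 or more tested probes (63 probes), the sign of the M+V against control difference was not the same over the probes in 10, and it was not the same in 9 and 10 of them in the comparisons with 4 weeks. The values had a median range over a gene's probes of 0.10 for M+V against control, over 0.25 in Rps10 and Rpl7l1. The median range was 0.19 for control against 4 weeks, over 0.25 in Rpl22, Rpl37a, Rps18, Rpl7l1 and Rps10, and 0.15 for M+V against 4 weeks, over 0.25 in Rpl22 and Rps10. Rps10, a small-subunit protein, was steady on 4 bright probes, which differed by -0.12 to 0.17 between M+V and control, but its probe 1439374_x_at ran from 9.13 to 14.23 over the 16 arrays. In control this probe read 12.03, 14.23, 13.38, 14.21 and 9.17, and with M+V 9.13 to 13.50, with a difference of -1.48 between M+V and control (SE 0.89, adjusted p = 0.59). It varied as widely within groups as between them.

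Rpl7l1, a paralog of Rpl7 with a part in early ribosome assembly, had a dim probe that differed from its 2 brighter ones. Probe 1439780_at read 7.85, 8.14, 8.08, 7.82 and 8.17 at 4 weeks and 7.53, 7.93, 7.63, 7.75 and 7.99 in control, and with M+V from 8.12 to 8.37, with a median of 8.32. All 6 M+V arrays lay above all 5 control arrays, and the log2 fold change was 0.51 (SE 0.10, adjusted p = 0.34). The brighter probes gave 0.12 (SE 0.089, adjusted p = 0.67) and 0.053 (SE 0.081, adjusted p = 0.86). Within the low spike-in level the dim probe still gave 0.47, beside 0.035 and -0.014. This probe and that of Rps10 were chosen after their values were seen.

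**Figure D4:**
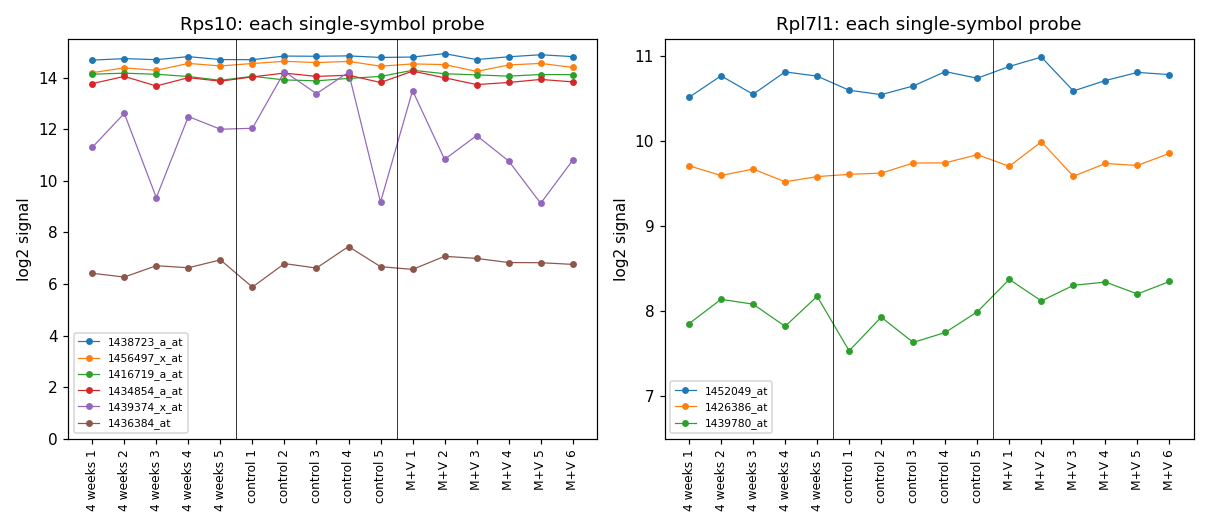
Log2 signal of every single-symbol probe of Rps10 (left) and Rpl7l1 (right) on the 16 arrays, with vertical lines between the groups. Probe 1439374_x_at of Rps10 swings from 9.13 to 14.23 while its 4 brightest probes stay level, and probe 1439780_at of Rpl7l1 is higher on all M+V arrays than on all control arrays.

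The related lists held single calls, all in M+V against 4 weeks, where 5.28% of all probes passed the test. Of the 35 tested genes of ribosome biogenesis, 1 passed an adjusted p of 0.05 in 1 comparison, Nop58, a core protein of the box C/D RNPs that methylate rRNA, whose log2 fold change of M+V over 4 weeks was -0.56 (SE 0.12, adjusted p = 0.015). Among 13 tested RNA polymerase I genes Polr1d, a subunit shared with RNA polymerase III, was higher by 0.39 (SE 0.11, adjusted p = 0.040) in the same comparison. Of 14 other genes with TOP mRNAs, Eef2, the elongation factor that moves the ribosome along, was higher by 0.38 (SE 0.091, adjusted p = 0.023). Eef2 read 12.36 to 12.72 on the arrays of 4 weeks and 12.84 to 13.24 with M+V, without overlap. For the mTOR and Myc list 0 of 15 passed in any comparison. Of 76 mitochondrial ribosomal proteins, Mrpl19 was higher with M+V than at 4 weeks by 0.28 (SE 0.078, adjusted p = 0.047). In M+V against control 0 of these genes passed, and the list medians were -0.058 for biogenesis, 0.043 for RNA polymerase I, 0.065 for the other TOP mRNAs, 0.0018 for mTOR and Myc and 0.058 for the mitochondrial ribosomal proteins, 56 of which lay above 0.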

How the data were processed

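RNA of 16 cochleae was measured on Affymetrix mouse whole-genome arrays. The deposited values are log2 signals that the authors made with MAS5 and quantile normalization, so that all arrays hold the same sorted values (median 6.90). Each array is read as 1 mouse, because the range of mice per group in the methods matches the arrays per group. Signals under 1 (0.869% of values) were set to 1. A probe entered the test when its signal was at or above the array median on all arrays of 1 group or more (21391 probes of 45101, after 64 control probes were left out). Names came from the platform annotation, with 34958 probes of 1 symbol, 932 of several and 9211 of none. All 48 members matched RefSeq by gene identifier.

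One limma 3.58.1 model (R 4.3.3) with a mean per group was fitted to all 16 arrays, two-sided, with Benjamini-Hochberg adjustment over all tested probes, and was tested on simulated data. A gene stands for its brightest probe. Named genes were the 5 highest and 5 lowest per subunit and comparison, any past an adjusted p of 0.05, and a fixed list. That list held known roles, paralogs and Rpl37. Rpl37 was on it because the study lists it as higher with M+V, from these same arrays. Any other named is said to be chosen after its values were seen, and the genes without overlap are named because they are few. The members and lists were chosen with earlier results of these data known.

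Alternatives were cyclic loess, log2(signal + 32), no filter and a 75th percentile filter, only the compared groups, array weights, the replicate number and the spike-in level as blocks, single spike-in levels, Gapdh 3'/5', glial and erythroid covariates, other probes, the methods' t-test and leaving out each array. Leaving out the paralogs and using only members of at least 13 in mean signal were chosen after seeing the data. The number of arrays limits the precision. Protein sequences were not used here.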

Additional observations from a re-analysis of the deposited data

Results flagged for a closer look

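In 6 of 123 sets of arrays (each measure in each group), 1 array stood apart from the rest of its group by Dixon's test, and chance alone gives about 1 in 20. The mean over the small-subunit members was -0.11 on array 5 of 4 weeks, against -0.0064 to 0.021 on the other 4. Rps27, a dimmer member and part of that mean, read 7.49 on the same array against 8.78 to 9.11. Over the small-subunit members of at least 13 in mean signal, this array lay at -0.058, beside -0.055 on array 1 of 4 weeks. On M+V 3 the small-subunit mean was -0.076 against 0.028 to 0.073 on the other 5, Rplp0 read 13.71 against 13.97 to 14.11, and Rps29 read 15.06 against 15.22. For Rps29 the other 5 arrays share 1 value, so any other reading would have been flagged and the chance rate does not apply. Over the small-subunit members of at least 13 in mean signal, M+V 3 lay at -0.050, against 0.012 to 0.073. Rpl37 read 9.79 on control 1 against 8.81 to 9.03 on the other control arrays.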

How the results depend on the processing

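Counts of members past an adjusted p of 0.05 stayed at 0 for M+V against control in every alternative. For control against 4 weeks, 1 member was higher with the spike-in level as a block (Rpl39; 0.168% of all probes were higher). For M+V against 4 weeks, 1 was higher with the filter at the 75th percentile (Rps19; 3.85% of all probes were higher), 4 with array weights (Rpl27, Rps18, Rps19 and Rps6; 5.40% of all probes), 4 with the spike-in level as a block (Rpl11, Rpl27a, Rpl37 and Rps19; 2.72% of all probes), 1 on the arrays of high spike-in level alone (Rpl27a; 1.64%), 1 with the methods' t-test (Rpl38; 0.449%), and 0 to 1 when each array was left out, the 1 being Rps19 without M+V 3 (4.03%). At the study's cutoffs the 1 higher member, Rpl37, became 0 with array weights, the spike-in block or arrays of low level alone. In these settings its log2 fold change was 0.582, 0.578 and 0.573, and it missed only the fold cutoff (0.585). Of all tested probes, 21, 38 and 23 then passed upward, against 42 in the main fit. With the glial or the erythroid covariate the count was also 0, and Rpl37 (0.52 and 0.40) missed both cutoffs. The count was 0 as well with the second brightest probe or with the brightest not ending in x_at or s_at (Rpl37 has neither). Over left-out arrays the count ranged from 0 to 1. It was 0 without M+V 1, where Rpl37 (0.49) missed only the fold cutoff. With no filter 1 of the 48 members, Rpl3l, was lower, beside 889 of all 45037 probes. Its probe is dim (mean 3.32), and its log2 fold change was -1.76 (SE 0.79, adjusted p = 0.68 in limma). Only 3 medians moved. For the large subunit they were those with the second brightest probe, -0.018 for control and -0.0024 for M+V against 4 weeks. Of the 20 members of both subunits with such a tested probe, these medians use only Rpl13a, Rpl22, Rpl27, Rpl35, Rpl37a, Rpl41, Rpl7 and Rpl7l1. For the small subunit it was the median for M+V against 4 weeks on arrays of high level (0.10). Of 3351 values of 39 named genes under alternatives, 175 changed sign. Residuals of same-numbered arrays had a median correlation of 0.013 over 15 pairs, 6 of them over 0.1, beside -0.019 for arrays of other numbers. Whether same-numbered arrays share anything was not tested. With the replicate block the counts of members were 0. The large and small medians were then 0.015 and 0.027 for M+V against control.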
